A study of Mus musculus with 2 samples.

Results

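The low-density lipoprotein (LDL) receptor family was examined in mouse embryos with and without a working copy of *Dullard* (*Ctdnep1*), which encodes a phosphatase of the nuclear envelope. The members are the receptors *Vldlr*, *Lrp8*, *Lrp1*, *Lrp2*, *Lrp4*, *Lrp5* and *Lrp6* and their chaperone *Lrpap1*, 8 genes of the 14771 that were measured on both arrays. They were chosen by name, and the family was picked because *Vldlr* was among the genes with the highest ratio between these embryos. The value of *Vldlr* is therefore given as a description. RNA of *Dullard*-/- and of *Dullard*+/- origin, both labelled whole embryo, C57BL/6 and E7.5, was measured on Agilent 1-colour arrays covering the mouse genome, with 1 array per genotype. Whether RNA of several embryos was pooled is not stated, and each sample is called an embryo here. The *Dullard*+/- embryo carries a single working copy and stands as the control, and no wild-type array was used here. The study used a pair of alleles made in embryonic stem cells, a deletion of the whole gene (129/ola cells) and a *LacZ* insertion replacing the catalytic exons (C57BL/6×CBA cells), and gave mutants of either the same name, so the allele behind this array is not known here. With 1 sample for each genotype no test of the difference could be made, no p-value is printed, and every difference describes this pair of samples.

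Receptors of this family reach out of the cell with cysteine-rich repeats that bind ligand and carry short tails that recruit adaptor proteins inside it. They bring lipoproteins, proteases and vitamin carriers into the cell, and several pass on signals: VLDLR and LRP8 for reelin, LRP4 for agrin, and LRP5 and LRP6 for WNT proteins together with Frizzled receptors. In the gastrulating mouse embryo LRP2 (megalin) serves uptake at the apical face of the visceral endoderm, and LRP5 and LRP6 carry the WNT signal on which the primitive streak depends.

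The signals are background-subtracted spot intensities. For comparison each was divided by its array's 75th percentile, 264 for *Dullard*-/- and 286 for *Dullard*+/-, and taken on the log2 scale. A gene's log2 fold change is *Dullard*-/- over *Dullard*+/-, averaged over the probes that both arrays measured well above background. The error after ± comes from replicate spots with signals close to that of the probe. It holds neither the variation among embryos nor that among probes for 1 gene (pooled SD 0.29). Among 43020 non-control spots, 29310 (*Dullard*-/-) and 31242 (*Dullard*+/-) were well above background, and precision is limited by the number of arrays. The single probe of *Dullard* itself read 144 in *Dullard*-/- and 672 in *Dullard*+/-, a log2 fold change of -2.11 ± 0.06, in the direction of the labels. The probe was still well above background in *Dullard*-/-, and its place relative to either allele was not checked. By in situ hybridization and Q-PCR, the study found no *Dullard* mRNA in *Dullard*-/- embryos at E7.5. The source of the remaining array signal was not tested. All 9 genes listed for epiblast and primitive streak (among them *Pou5f1*, *T* and *Eomes*) and all 11 listed for visceral endoderm (among them *Afp*, *Ttr* and *Apob*) were well above background in both embryos.

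A single receptor stood apart from the others. The signal of *Vldlr* was higher by 4.01-fold in *Dullard*-/-, while the remaining 7 members lay between 1.15-fold lower and 1.28-fold higher. Of the 8 members, 1 was at least 2-fold higher and 0 were at least 2-fold lower, where the shares over all genes were 0.894% higher and 0.765% lower. The same counts, 1 and 0, held at 1.5-fold, where they were 3.92% and 3.37%. The median log2 fold change was 0.11 over the 8 members and 0.08 without *Vldlr*, beside 0.01 over all genes. Since *Vldlr* was the reason for the choice, nothing is read from these counts against the shares.

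**Figure D1:**
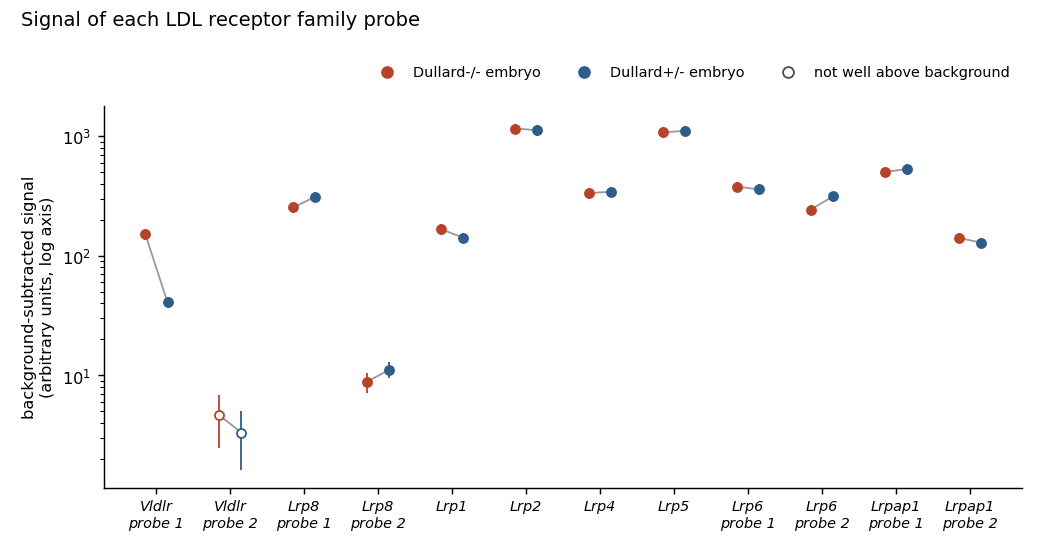
Background-subtracted signal (vertical axis, arbitrary units, log scale) of the 12 family probes in the *Dullard*-/- embryo (left, red) and the *Dullard*+/- embryo (right, blue), 1 array each. Bars are the error that the extraction software gives a spot, open circles mark the *Vldlr* probe that was not well above background, and heights of different probes are not comparable. The brighter *Vldlr* probe has 152 and 40.9, and the pairs of the other probes lie close to level.

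*Vldlr* (NM_013703, chromosome 19) encodes the receptor that binds reelin and lipoproteins rich in apolipoprotein E. Its brighter probe read 152 in *Dullard*-/- and 40.9 in *Dullard*+/-, with errors of 15.3 and 4.36 from the extraction software. The log2 fold change after scaling was 2.0 ± 0.10. The difference was plain in the unprocessed spots too, with median pixel intensities of 158 over a local background of 16 on the *Dullard*-/- array and of 63 over 17.5 on the *Dullard*+/- array. Neither spot was saturated or carried an outlier mark. The 70 spots within 5 rows and 5 columns of it that were well above background had a median log2 fold change of 0.02, and the highest of them was at 1.53, so the spots around it did not share its ratio. The second *Vldlr* probe was not well above background in either embryo, at 4.65 in *Dullard*-/- and 3.33 in *Dullard*+/-, so no fold is given and the value of *Vldlr* rests on 1 probe. Such single-probe values are common here, at 11024 of the 14771 genes.

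By log2 fold change *Vldlr* was at rank 9 from the highest of all genes, the last of the 9 genes that were at least 4-fold higher (0.0609% of all). *Itga8*, just below it, was at 1.95 ± 0.28, and *Dmbx1*, just above it, at 2.06 ± 0.26. With *Rnf152* at 1.94 ± 0.26 these are the 3 genes whose value lay nearest to that of *Vldlr* over the 2 samples. *Itga8* read 26.1 in *Dullard*-/- and 7.31 in *Dullard*+/-, *Dmbx1* 32.5 and 8.44, and *Rnf152* 30.2 and 8.48, with *Dullard*+/- signals near the lowest one well above background there (5.99). Likeness over 2 samples is only a like ratio. *Vldlr* lies in the second quartile of genes by signal, where 0.948% of 3693 genes were at least 2-fold higher.

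The stretch in front of the *Vldlr* gene is shown because it belongs to the member with the large difference, with that of *Lrp2*, a member near 0, for comparison. Both are RefSeq sequence of the GRCm38.p6 build, 5′ to 3′ along the gene, ending at the base before the annotated gene start, with CpG dinucleotides in capitals.
*Vldlr* (chr19:27216234-27216479, plus strand): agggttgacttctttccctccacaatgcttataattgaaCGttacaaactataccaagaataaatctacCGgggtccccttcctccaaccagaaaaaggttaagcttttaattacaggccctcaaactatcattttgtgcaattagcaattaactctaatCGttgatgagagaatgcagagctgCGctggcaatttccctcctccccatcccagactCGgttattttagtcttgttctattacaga
*Lrp2* (chr2:69586030-69586279, minus strand): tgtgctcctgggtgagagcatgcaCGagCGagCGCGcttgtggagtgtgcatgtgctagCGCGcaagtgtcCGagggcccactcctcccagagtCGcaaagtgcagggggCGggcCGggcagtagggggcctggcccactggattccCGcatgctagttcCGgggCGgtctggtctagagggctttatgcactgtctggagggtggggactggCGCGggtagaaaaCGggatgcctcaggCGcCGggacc
The *Vldlr* stretch holds 5 CpG and the *Lrp2* stretch 18. Windows of 250 bases before a start were found for 5 of the 8 members. The G and C content was 41.6% for *Vldlr*, 62.4% for *Lrp8*, 67.2% for *Lrp1*, 66.4% for *Lrp2* and 60.8% for *Lrpap1*, beside a median of 52.4% over 32851 windows. *Vldlr* has 2 annotated starts and *Lrp8* has 3, and the array does not tell them apart, so the window of the first listed was used. On both strands, 8 short motifs were searched: the GC box GGGCGG of SP1, the NF-Y box CCAAT, the E-box CACGTG, the hypoxia response cores ACGTG (also inside the E-box) and GCGTG, the TCF motif ATCAAAG, the OTX motif TAATCC and the TATA box as TATAAA. The *Vldlr* window held none of these letters, and the other 6 motifs, held by between 3.21% and 33.8% of all windows, were in no member's window. The GC box was found 2 times for *Lrp2*, 5 times for *Lrpap1* and 1 time for *Lrp1*, and 32.7% of all windows hold it. The GCGTG core was found 1 time for *Lrp8* and 1 time for *Lrpap1*, and 28.2% of all windows hold it.

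*Lrp8* (NM_001080926, chromosome 4), which encodes the other reelin receptor (ApoER2), was 1.15-fold lower in the *Dullard*-/- embryo. The brighter of its pair of probes gave 255 in *Dullard*-/- and 312 in *Dullard*+/-, a log2 fold change of -0.18 ± 0.06, and the dimmer gave 8.88 and 11.2, at -0.22 ± 0.30. The probes were 0.04 apart on the log2 scale, and 89.3% of the 3136 genes with a pair of measured probes had a gap at least as large. Their mean of -0.20 ± 0.16 was the lowest of the family, opposite in sign to *Vldlr*.

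Of the reelin pathway, 10 of the 11 listed genes were measured, and *Vldlr*, for which the family was picked, was the sole gene past 1.5-fold in either direction, where 92.7% of all genes were within it. The median log2 fold change was 0.00 (-0.11 without scaling). *Dab1*, the adaptor that reelin receptors bind and that is phosphorylated on signalling, gave 113 in *Dullard*-/- and 117 in *Dullard*+/-, averaged over 3 probes, at 0.11 ± 0.06. With its brightest probe alone *Dab1* was at -0.10. The kinases that phosphorylate it were near 0, with *Src* at 0.01 ± 0.09 and *Fyn* at -0.04 ± 0.19. *Crk*, which binds phosphorylated DAB1, was the lowest at -0.26 ± 0.06, and its relative *Crkl* was at 0.22 ± 0.07. The *Crk* probes were at -0.07, -0.09 and, for a dim probe with 24.3 in *Dullard*-/- and 40.5 in *Dullard*+/-, -0.63. With the brightest probe alone (-0.07 for *Crk*), *Lrp8* was the lowest instead (-0.18). *Reln*, the ligand, was not well above background in the *Dullard*-/- embryo (7.49) and was in the *Dullard*+/- embryo (8.81), close to the lowest signals well above background, 7.27 and 5.99. Its bound was at least 1.09-fold lower in *Dullard*-/-. Of 903 genes well above background on the *Dullard*+/- array alone, 581 had a bound as large or larger.

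**Figure D2:**
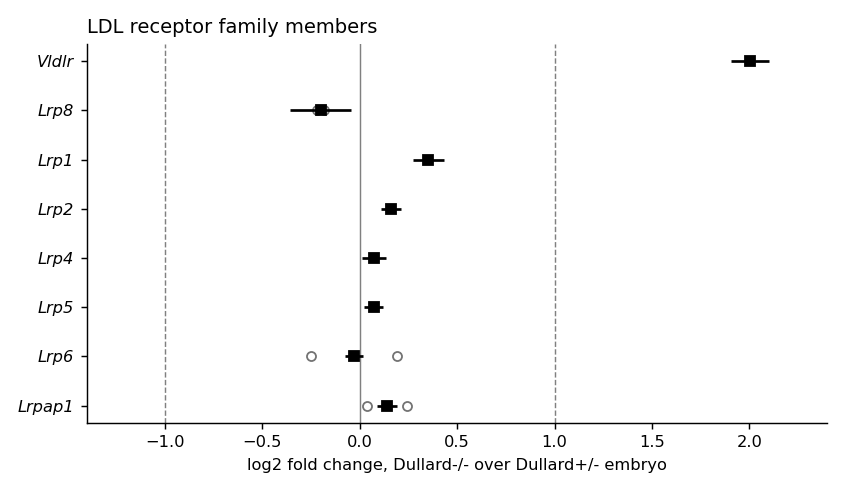
Log2 fold change of each member (horizontal axis, *Dullard*-/- over *Dullard*+/-), 1 array per genotype. Squares are the mean over probes with the error from replicate spots, open circles the single probes of genes with several, and dashed lines 2-fold. *Vldlr* is at 2.0, *Lrp1* at 0.35 and *Lrp8* at -0.20, and the probes of *Lrp6* lie on either side of 0.

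*Lrp1* (NM_008512, chromosome 10) encodes a large endocytic receptor for lipoprotein remnants and for proteases bound to their inhibitors. Its probe read 167 in *Dullard*-/- and 142 in *Dullard*+/-. This was 1.28-fold higher after scaling (log2 fold change 0.35 ± 0.08), the largest value in the family after *Vldlr*, and 19.2% of all genes lay at least as far from 0. *Lrp2* (NM_001081088, chromosome 2) had 1162 in *Dullard*-/- and 1125 in *Dullard*+/-, 1.12-fold higher (0.16 ± 0.05), and 47.6% of genes lay as far from 0 or farther. These receptors thus sat within the bulk of the array.

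LRP2 works in the visceral endoderm with cubilin, its anchor amnionless and the adaptor DAB2. Of the 9 listed genes of this uptake route all were measured, and the median log2 fold change was 0.10 (-0.02 without scaling). Past 1.5-fold in either direction were 0 of them, where 92.7% of all genes were within it. *Cubn* was the lowest, with 1612 in *Dullard*-/- and 2137 in *Dullard*+/- over a pair of probes (-0.34 ± 0.03). Its probes were at -0.60 and -0.09, and with the brightest probe alone (-0.09) *Clcn5*, an endosomal chloride transporter, was the lowest instead (-0.25). *Amn* was at 0.10 ± 0.05 and *Dab2*, with 13808 in *Dullard*-/- and 17331 in *Dullard*+/-, at -0.21 ± 0.04. *Gipc1*, which binds the tail of LRP2, was the highest at 0.32 ± 0.06. The visceral endoderm markers as a whole had a median of 0.00, and their summed signal, in units of each array's 75th percentile, was 103 in *Dullard*-/- and 105 in *Dullard*+/-. In RNA from whole embryos, fewer cells of a type and less RNA per cell cannot be told apart.

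*Lrp4* (NM_172668, chromosome 2) encodes the co-receptor of agrin, which also binds secreted WNT inhibitors. It had 335 in *Dullard*-/- and 344 in *Dullard*+/-, with a log2 fold change of 0.08 ± 0.06 after scaling and -0.04 without scaling between the arrays. *Agrn* was at -0.20 ± 0.04, with 810 in *Dullard*-/- and 1006 in *Dullard*+/-, and *Rapsn*, which clusters acetylcholine receptors at the muscle synapse, was at 0.14 ± 0.06. *Musk*, the kinase that LRP4 activates on binding agrin, differed much more on its single probe. It was not well above background in the *Dullard*-/- embryo, at 1.44, and gave 84.9 in the *Dullard*+/- embryo. The unprocessed median intensities were 28 over a background of 18 in *Dullard*-/- and 115 over 17 in *Dullard*+/-. Taken against the lowest signal well above background, *Musk* was lower by at least 10.8-fold in *Dullard*-/-. Of 903 genes well above background on the *Dullard*+/- array alone, 2 had so large a bound, *Musk* among them. The 81 neighbouring spots had a median log2 fold change of 0.03. *Dok7*, which activates MUSK from inside the cell, was not well above background in either embryo.

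**Figure D3:**
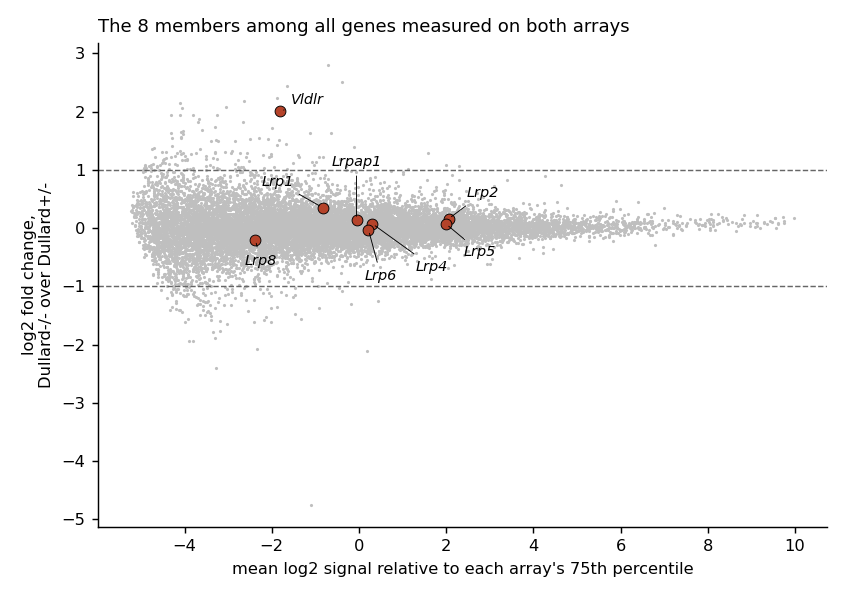
Log2 fold change (vertical axis, *Dullard*-/- over *Dullard*+/-) against the mean log2 signal relative to the 75th percentile of each array (horizontal axis). Shown are the 14771 genes measured on both arrays, 1 array per genotype. Red circles are the 8 members and dashed lines mark 2-fold. *Vldlr* lies at 2.0, outside the band that holds the other members.

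*Lrp5* (NM_008513, chromosome 19) and *Lrp6* (NM_008514, chromosome 6) encode the WNT co-receptors. *Lrp5* gave 1080 in *Dullard*-/- and 1111 in *Dullard*+/- on its probe, a log2 fold change of 0.07 ± 0.05. *Lrp6* has a pair of probes that went apart. The brighter gave 381 in *Dullard*-/- and 360 in *Dullard*+/-, at 0.19 ± 0.06, and the other gave 244 and 314, at -0.25 ± 0.07. The gap between them was 0.44, and 21.0% of genes with a pair of measured probes had one at least as large. Their mean of -0.03 ± 0.04 therefore hides values of opposite sign, and it was 0.19 with the brightest probe alone. *Lrp5* and *Lrp6* both lay among the genes nearest 0, with 73.3% and 88.5% of all genes at least as far from it.

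*Lrp5*, *Lrp6* and the genes that act with them inside the cell are given together beside all genes, of which 92.7% were within 1.5-fold. The median over the 13 listed, both co-receptors included and all measured, was 0.07 (-0.05 without scaling and 0.19 with the brightest probe alone). That 0.19 is the value of *Lrp6* itself. Of these genes, 1 was past 1.5-fold upward and 0 downward. *Cdk14*, whose product with cyclin Y phosphorylates LRP6, was the one past it, and barely so (0.59 ± 0.05). Both of its probes were higher, at 0.56 and 0.61, with 145 and 522 in *Dullard*-/- and 107 and 369 in *Dullard*+/-. *Cdk14* was inside 1.5-fold under 5 of the 10 other settings, with quantile normalization and loess (both 0.58), the authors' processed table (0.56), no scaling (0.47) and normexp background correction (0.44). *Ccny*, which encodes that cyclin, was at -0.13 ± 0.26. The probes of *Csnk1g1* (0.33 and -0.29), *Csnk1g2* (0.36 and -0.23) and *Csnk1g3* (0.29 and -0.10) lay on either side of 0. *Ctnnb1*, which encodes β-catenin, was at 0.44 ± 0.04, with 26113 in *Dullard*-/- and 20821 in *Dullard*+/-, and *Axin1*, a scaffold of its destruction complex that LRP6 recruits, was at -0.19 ± 0.05.

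Among the secreted inhibitors that bind these co-receptors, *Dkk1* was bright and the others were dim or not well above background. Of 7 listed inhibitors and Kremen partners, 4 were measured, none past 1.5-fold, where 92.7% of all genes were within it. The median was -0.34, and it was -0.45 without scaling, 0.00 with normexp and 0.01 without a filter on dim probes. *Kremen1*, a receptor for Dickkopf proteins that takes LRP6 off the surface, gave 133 in *Dullard*-/- and 182 in *Dullard*+/- (-0.34 ± 0.08). *Sostdc1* gave 9.05 in *Dullard*-/- and 12.4 in *Dullard*+/- (-0.34 ± 0.30), and *Dkk4* 13.8 in *Dullard*-/- and 21.2 in *Dullard*+/- (-0.50 ± 0.25), which was past 1.5-fold without scaling (-0.61). *Dkk1* went the other way, at 0.35 ± 0.05, with 778 in *Dullard*-/- and 661 in *Dullard*+/-. *Kremen2*, with 5.92 in *Dullard*-/- and 6.62 in *Dullard*+/-, was well above background in *Dullard*+/- alone and has no fold. *Dkk2* and *Sost* were not well above background in either embryo.

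*Lrpap1* (NM_013587, chromosome 5) encodes the chaperone that keeps these receptors from binding ligand before they leave the endoplasmic reticulum. Its probes gave 504 and 142 in the *Dullard*-/- embryo and 531 and 129 in the *Dullard*+/- embryo, at 0.04 ± 0.05 and 0.24 ± 0.08, and 0.14 ± 0.05 on average. *Mesd*, which folds LRP5 and LRP6, was at 0.00 ± 0.05, and *Hsp90b1*, a general chaperone of the same compartment, at -0.03 ± 0.04. The chaperones therefore stayed near 0. Receptor turnover was more varied. *Mylip*, the ubiquitin ligase that sends VLDLR and LRP8 to degradation, was at 0.33 ± 0.12, with both probes higher (0.32 and 0.33). *Znrf3*, a ubiquitin ligase that removes Frizzled and LRP6 from the surface, was at 0.47 ± 0.14. Its relative *Rnf43* was well above background in the *Dullard*-/- embryo alone, with 17.8 in *Dullard*-/- and 3.36 in *Dullard*+/-, at least 3.22-fold higher. Of 152 genes well above background on the *Dullard*-/- array alone, 16 had a bound at least this large. *Porcn*, which adds the lipid that WNT proteins need to leave the cell, was 1.63-fold lower, with 62.0 in *Dullard*-/- and 110 in *Dullard*+/- (-0.71 ± 0.10), and was within 1.5-fold with normexp (-0.43). Of the 7 genes with a probe that were listed for turnover and folding, 6 were measured on both arrays. Past 1.5-fold were 0 upward and 1 downward, beside 3.92% and 3.37% of all genes. The 1 downward was *Porcn*, whose product acts on WNT proteins and not on these receptors.

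**Figure D4:**
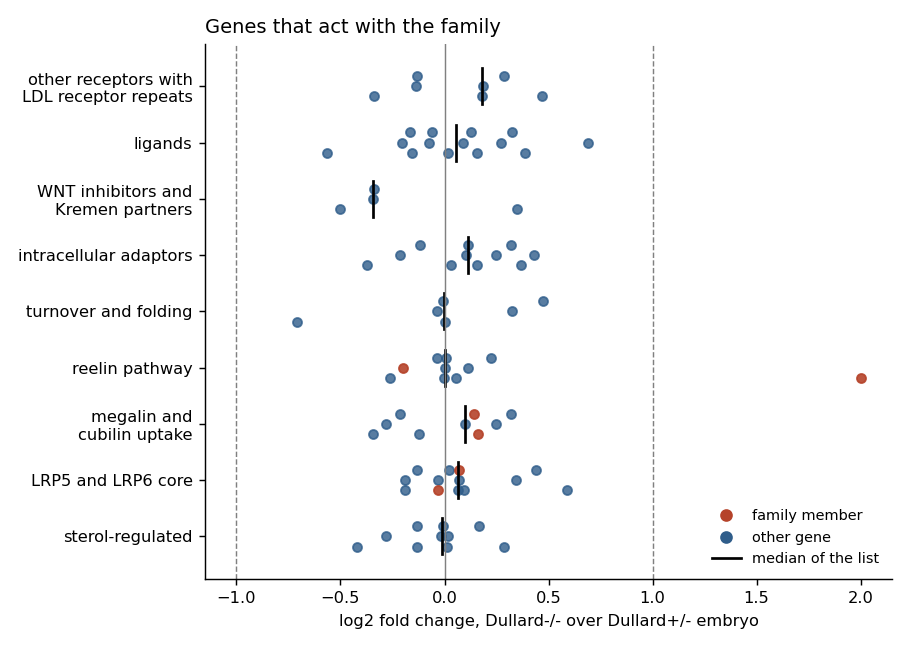
Log2 fold change (horizontal axis, *Dullard*-/- over *Dullard*+/-) of the measured genes in 9 lists of genes that act with the family (rows), 1 array per genotype. Red points are family members, blue points other genes, black bars the median of each list and dashed lines 2-fold; points are staggered vertically for view. *Vldlr*, in the reelin pathway, is the sole point past 2-fold.

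Other receptors with the same ligand-binding repeats were within 1.5-fold where measured, as were 92.7% of all genes. Of 11 listed, 7 were measured, 0 were past 1.5-fold in either direction, and the median log2 fold change was 0.18. *Sorl1*, a sorting receptor of endosomes, was the highest, with 148 in *Dullard*-/- and 115 in *Dullard*+/- (0.47 ± 0.08). *Lrp3* was the lowest at -0.34 ± 0.08, but its probes were at -0.67 and -0.02. *Ldlrad3* also has probes that went apart, at 0.08 and -0.36, and their signals differed widely. The first gave 169384 in *Dullard*-/- and 173285 in *Dullard*+/-, and the second 33.2 and 45.9. *Lrp1b*, *Ldlrad2* and *Ldlrad4* were not well above background in either embryo, and *Ldlrad1* had 3.07 in *Dullard*-/- and 8.64 in *Dullard*+/-, well above background in the second alone (at least 1.10-fold lower).

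Of 18 listed ligands, 14 were measured, with a median of 0.05 (-0.06 without scaling), and 1 was past 1.5-fold upward and 0 downward. Over all genes the shares past 1.5-fold were 3.92% upward and 3.37% downward. *Lpl*, the lipoprotein lipase that also docks lipoproteins on VLDLR, was the highest, 1.61-fold higher. Its probes gave 60.4 and 14.8 in *Dullard*-/- and 44.5 and 9.01 in *Dullard*+/-, at 0.55 ± 0.12 and 0.83 ± 0.30. *Lpl* was inside 1.5-fold without scaling (0.58), with normexp (0.23) and with the brightest probe alone (0.55). *Clu*, an extracellular chaperone that binds LRP2 and VLDLR, was the lowest, with 84.8 in *Dullard*-/- and 135 in *Dullard*+/- (-0.56 ± 0.09), and it was past 1.5-fold without scaling (-0.68) and with the authors' processed table (-0.59). Among the apolipoproteins listed, *Apoe* was at 0.02 ± 0.01, *Apoa1* at 0.09 ± 0.01 and *Apob* at -0.15 ± 0.03. *Plat*, a plasminogen activator cleared by LRP1, was well above background in the *Dullard*+/- embryo alone, with 2.13 in *Dullard*-/- and 22.4 in *Dullard*+/-, at least 2.85-fold lower in *Dullard*-/-. *Plau*, the other plasminogen activator, had 7.56 in *Dullard*-/- and 6.91 in *Dullard*+/-, was well above background in *Dullard*+/- alone and has no fold. The adaptors that bind the receptor tails were all measured, 11 of 11, with a median of 0.11 and 0 past 1.5-fold, between *Apbb2* (-0.37 ± 0.07) and *Mapk8ip2* (0.43 ± 0.07).

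Marker genes of several tissues also differed between these samples. Of 6 endothelial markers 5 were measured, 3 positive and 2 negative, between -0.93 for *Tek* and 1.10 for *Cdh5*. Their summed signal was 4.47 in *Dullard*-/- and 3.28 in *Dullard*+/- (in units of the 75th percentile). Without *Kdr*, the brightest, it was 0.893 in *Dullard*-/- and 0.571 in *Dullard*+/-. The median log2 fold change was 0.64 (0.20 with the brightest probe alone and 0.29 with normexp). The median is *Kdr*, whose probes were at 1.09 and 0.20. The epiblast and primitive streak markers had a median of 0.44, between *T* (Brachyury, -1.19) and *Mixl1* (1.39), and summed to 603 in *Dullard*-/- and 560 in *Dullard*+/-, or 35.1 and 25.8 without *Nanog*, the brightest. Of the primitive blood markers, 2 of 5 were measured, *Hbb-bh1* at -2.08 and *Gata1* at -1.30, with sums of 0.656 in *Dullard*-/- and 1.79 in *Dullard*+/-. *Hbb-y* was well above background in *Dullard*+/- alone, and *Hba-x* and *Klf1* were not well above background in either embryo. Of the genes listed for maternal red cells, 3 of 5 were measured, between -1.38 for *Hba-a2* and 0.13 for *Slc4a1*, with sums of 0.852 in *Dullard*-/- and 1.77 in *Dullard*+/-. *Hbb-bt* and *Hbb-bs* were well above background in *Dullard*+/- alone. Whether the transcripts on this list came from maternal or embryonic red cells was not tested. The extraembryonic ectoderm and trophoblast markers, 8 of 9 measured, had a median of -0.04, between *Ascl2* (-0.74) and *Prl3d1* (1.07), and summed to 10.09 in *Dullard*-/- and 10.09 in *Dullard*+/-. Of the decidua markers 3 of 6 were measured, between *Pgr* (-0.55) and *Des* (0.25), with sums of 1.01 in *Dullard*-/- and 0.904 in *Dullard*+/-. Without *Igfbp4*, the brightest, the sums were 0.161 in *Dullard*-/- and 0.176 in *Dullard*+/-. *Prl8a2*, the defining decidual hormone gene, was not well above background in either embryo. The part of these tissues in the value of *Vldlr*, *Musk* or any other gene was not tested.

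**Figure D5:**
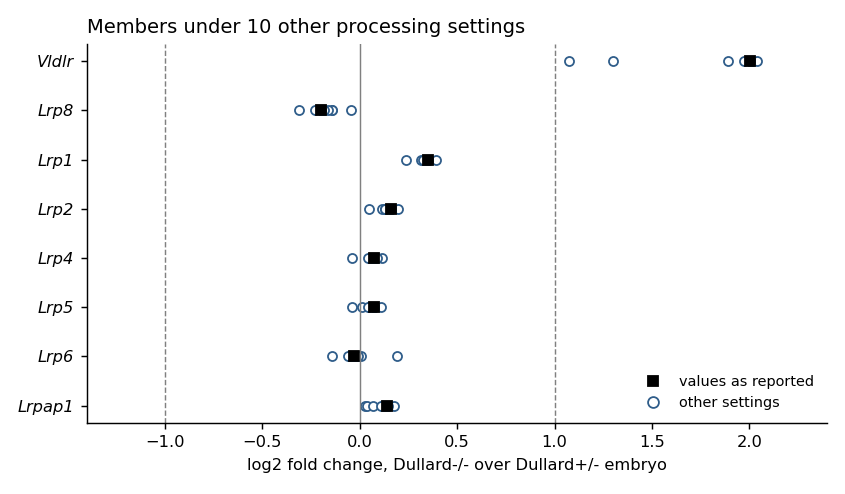
Log2 fold change (horizontal axis, *Dullard*-/- over *Dullard*+/-) of each member as reported (black squares) and under 10 other processing settings (open circles). There was 1 array per genotype, and dashed lines mark 2-fold. *Vldlr* runs between 1.07 and 2.04, and *Lrp4*, *Lrp5* and *Lrp6* have settings on both sides of 0.

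The size of the *Vldlr* value depended on how dim signals were handled, while its direction did not. It was 1.07 with normexp background correction, whose added offset of 50 exceeds the signal of 40.9 in the *Dullard*+/- embryo and pulls such ratios toward 0 by construction. It was 1.30 when the probe that was not well above background was averaged in, and between 1.89 and 2.04 with the other 8 settings, which left it past 2-fold in all 10. *Lrp1*, *Lrp2* and *Lrpap1* were positive and *Lrp8* negative under each of the 10 settings. *Lrp4*, *Lrp5* and *Lrp6* changed sign under 1, 1 and 2 of them.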

How the data were processed

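RNA of 1 *Dullard*-/- and 1 *Dullard*+/- sample was hybridized to 1-colour Agilent 4×44K arrays on the same slide and in the same scan. The methods and the labels name different amplification kits, and the labels give 0.1 µg of total RNA. The authors deposited spot intensity values from Agilent Feature Extraction 10.10 (submitters' processing notes), already background-subtracted, with a second table of processed intensities that equals them times 5.20 (*Dullard*-/-) and 4.91 (*Dullard*+/-). That table is linear with medians of 181 and 189, and no source used here says what the constants stand for. Log2 signals were taken relative to the 75th percentile of spots that are not controls. Outlier-marked spots (206, non-uniformity or population) were excluded, and none was saturated. Averages were taken over a probe's spots and then over a gene's probes where both arrays were well above background. Where a gene was well above background on 1 array, the bound sets the bright value against the other array's lowest well-measured signal, or the probe's own if higher. Accessions without versions were matched to RefSeq (GRCm38.p6), naming 30235 spots and leaving 12785 unnamed. The error pools the 40 of 282 replicated probes nearest in signal. Motifs were searched in 250 bases before each start.

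With 1 sample per genotype no test was run, and genes were counted at 2-fold and 1.5-fold. The members and lists were chosen with earlier results of these data known. Named were all members with every probe, the targeted gene, the genes nearest to *Vldlr*, pathway list genes past 1.5-fold (at most the 4 largest) or well above background on 1 array, and the highest and lowest of each marker list; other list genes, such as those near 0, were named after their values were seen. Some list genes are counted but not reported by name here. Simulated arrays served to test these steps. The alternatives covered normexp (offset 50), loess (span 0.3), quantile normalization, median scaling and no scaling, dim probes kept, marked spots kept, the brightest probe alone, averaged linear folds and the authors' processed table. Python 3.11.15, numpy 2.4.6, pandas 2.3.3, statsmodels 0.14.6, R 4.3.3 and limma 3.58.1 were used.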

Additional observations from a re-analysis of the deposited data

How the results depend on the processing

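*Vldlr* kept its direction and stayed past 2-fold under all 10 alternatives, with its log2 fold change at 1.89 without scaling, 1.30 without a filter on dim probes and 1.07 with normexp on median signals, which replaced the planned mean signals that the scanner columns used here do not hold. Its rank from the highest was 9 as reported and 284 of 20281 genes without the filter. The median over the 8 members was 0.11 as reported and -0.0049 without scaling, where the median over all genes moved to -0.10, so the signs of members near 0 rest on the scaling. The counts of members past 2-fold and 1.5-fold were the same, 1 higher and 0 lower, under every alternative. Over all genes the counts at least 2-fold higher and lower were 132 and 113 as reported, 159 and 99 with quantile normalization, 160 and 97 with loess, 152 and 105 with scaling to the median, 90 and 165 without scaling, 120 and 122 with the processed table, 484 and 778 without the filter, and 10 and 5 with normexp. No paired analysis was possible because each genotype has 1 sample. Signal over background limits *Reln*, *Lrp8*'s dim probe and the second *Vldlr* probe, all near the lowest signal well above background.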

Other observations

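Genes that respond to cell sterol are given beside all genes, of which 92.7% were within 1.5-fold. All 10 listed genes were measured, 0 were past 1.5-fold in either direction, and the median log2 fold change was -0.01. *Hmgcs1*, an early enzyme of cholesterol synthesis, was the highest at 0.28 ± 0.04, with 2897 in *Dullard*-/- and 2574 in *Dullard*+/-. *Stard4*, a carrier of cholesterol inside the cell, was the lowest at -0.42 ± 0.09, and its probes were at -0.05 and -0.79, so that with the brightest probe alone it was past 1.5-fold.

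The value of *Vldlr* was set beside those of its neighbours among protein-coding genes on chromosome 19. Of the 10 nearest, 5 on either side, 4 were measured on both arrays. *Smarca2*, 2 genes before it, was at 0.02 ± 0.08, *Pum3*, 2 genes after it, at 0.16 ± 0.05, *Rfx3* at 0.06 ± 0.05 and *Dmrt1* at -0.08 ± 0.08. *Glis3* and *Slc1a1* were well above background in *Dullard*+/- alone, and the other 4, among them the adjoining *Kcnv2*, in neither embryo.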
